A study of Mus musculus with 120 samples.

Results

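A set of 10 genes of neutrophil granules and neutrophil maturation was followed in scaffold biopsies of mice that did or did not develop type 1 diabetes. The genes are Ngp, Camp, Ltf, Lcn2, S100a8, S100a9, Mmp8, Retnlg, Csf3r and Mpo, which make 10 of the 55487 genes measured in every library. They were chosen by their measured levels in progressors, where Ngp and some of its partners were higher at 5 weeks before onset than at the later times, so that step is described below without a test. The biopsies are immunological niches (INs): porous poly(ε-caprolactone) discs placed under the skin of young mice, which fill with host cells and are taken out and replaced on a schedule.

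All groups were female mice that carried INs and went through repeated surgery of the same kind, and no group lacked an implant. NOD/ShiLtJ mice (NOD) become diabetic spontaneously, and NOR/LtJ mice (NOR), which share much of that background, are resistant. The 58 progressor libraries came from 10 NOD mice that became hyperglycemic and were taken at 6 weeks of age, at 7, 5, 3 and 1 weeks before onset (−7, −5, −3 and −1) and at onset. The 39 nonprogressor libraries came from NOD mice that stayed normoglycemic. They covered 11 mice at 6 weeks of age and 4 to 10 mice per age from 10 to 22 weeks. A further 6 libraries were labelled only by days after implantation. The 23 NOR libraries came from 5 mice, at ages from 6 to 22 weeks in steps of 4 weeks. The paper reports that INs were removed and replaced weekly, so the libraries are a selection of the biopsies. Libraries were sequenced in 2 batches of 74 and 46. All NOR libraries and the nonprogressor ages 10, 18 and 22 weeks were in batch 1, and all 8 libraries of −7 were in batch 2, including those of progressors 1 to 4, whose other libraries were in batch 1. Time before onset is not an age, and the ages of the progressors at these times were not used.

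Neutrophils fill their granules in a set order while they mature in the bone marrow. Azurophil granules with myeloperoxidase (Mpo) come first, then specific granules with neutrophilic granule protein (Ngp), cathelicidin (Camp), lactoferrin (Ltf) and lipocalin-2 (Lcn2), and then gelatinase granules. Cells that have left the marrow hold the finished proteins and little of the granule mRNA, whereas S100a8, S100a9, Retnlg and the receptor for granulocyte colony-stimulating factor, Csf3r, stay transcribed in mature cells. Several of these genes have other sources: Ltf and Lcn2 are also made by glandular epithelium, including the mammary gland that lies under the skin of female mice, and S100a8, S100a9 and Csf3r are also transcribed in monocytes and macrophages.

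The genes lie on 6 chromosomes, and Camp, Ngp, Ltf and Mmp8 are all on chromosome 9 (GRCm38, GENCODE M21). Camp (chr9:109847379-109849617, minus strand) and Ngp (chr9:110419747-110423012, plus strand) are 570129 bases apart, and Ltf (chr9:111019271-111042767, plus strand) starts 596258 bases beyond Ngp. S100a8 and S100a9 on chromosome 3 are separated by 22596 bases. Upstream DNA is shown for 1 gene of each of the 3 patterns of expression described below. The sequences are RefSeq promoter windows (GRCm38.p6), read 5′ to 3′ on the strand of the gene and ended where the GENCODE gene starts. Capitals mark the letters TTGCNNAA on either strand, a core that binding sites of the C/EBP family of myeloid transcription factors share.
Ngp, chr9:110419558-110419746, plus strand: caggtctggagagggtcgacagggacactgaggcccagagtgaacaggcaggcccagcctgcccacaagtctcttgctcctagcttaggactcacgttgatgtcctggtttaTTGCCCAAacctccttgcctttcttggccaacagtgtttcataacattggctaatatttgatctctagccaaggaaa
Ltf, chr9:111019042-111019270, plus strand: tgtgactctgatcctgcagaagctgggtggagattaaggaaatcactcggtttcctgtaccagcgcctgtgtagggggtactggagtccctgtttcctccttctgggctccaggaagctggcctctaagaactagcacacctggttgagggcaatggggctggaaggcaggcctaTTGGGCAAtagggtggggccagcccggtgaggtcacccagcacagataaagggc
S100a9, chr3:90695722-90695971, minus strand: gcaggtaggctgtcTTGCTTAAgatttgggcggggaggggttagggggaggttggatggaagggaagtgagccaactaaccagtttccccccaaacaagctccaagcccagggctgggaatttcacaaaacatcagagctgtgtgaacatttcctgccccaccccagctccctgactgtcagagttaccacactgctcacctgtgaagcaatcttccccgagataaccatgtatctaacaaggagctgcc

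In the 250 bases before the RefSeq start, TTGCNNAA was present on some strand in 6 of the 10 genes (Ngp, Ltf, Lcn2, Mmp8, S100a9 and Retnlg) and in 9.56% of the 32851 promoter windows of all genes. Ngp held it 2 times, at 138 and at 11 bases before the RefSeq start. The match at 11 bases lies inside the GENCODE gene and so is not in the sequence printed above. Ltf held it 75 bases before its RefSeq start. AGGAAGT, a core shared by binding sites of the ETS factor PU.1, was found in 3 of the 10 genes (Mmp8, S100a8 and Mpo) and in 7.69% of all windows. TATAAA was found in S100a8 only among the 10 genes and in 12.4% of all windows. No occurrence of one motif overlapped another among the 10 genes, and a match of letters is not a measured binding site.

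The values below are CPM, the counts of a gene relative to all counts of its library, scaled between libraries by edgeR's TMM factors. Total counts ran from 4722396 to 56185434 per library, so that 3 counts in a library correspond to a median of 0.103 CPM in batch 1 and 0.0725 CPM in batch 2. In a single library, the 18-week biopsy of NOR mouse 5, 1 gene took 85.7% of the counts and 3 counts correspond to 2.93 CPM, so its low values carry no information. Transcripts of macrophages dominated the INs, with the summed level of 7 markers between 1658 and 4023 CPM. Defining neutrophil genes were near the detection floor: the median over the 120 libraries was 0.0345 CPM for Ly6g, which marks mouse neutrophils, 0.0328 CPM for the azurophil protease Elane and 0 CPM for Ms4a3, a promyelocyte gene. Cxcr2, the chemokine receptor of mature neutrophils, had a median of 4.07 CPM. In bulk tissue, fewer cells of a type and less RNA per cell cannot be told apart.

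Per kilobase of exon, the 10 genes spanned more than 100-fold in median level. Csf3r was highest at 5.65 CPM per kilobase, followed by S100a9 at 1.52, S100a8 at 1.29, Mmp8 at 0.432, Lcn2 at 0.284, Ltf at 0.262, Retnlg at 0.127, Ngp at 0.116, Mpo at 0.0436 and Camp at 0.0354. Csf3r had more than 3 counts in all 120 libraries. Mmp8, Ltf, S100a8, Lcn2 and S100a9 did so in 119, 117, 117, 114 and 114 libraries, Mpo in 74, Ngp in 69, Retnlg in 49 and Camp in 23. Ngp was higher in batch 1 than in batch 2, with a median of 0.251 against 0.050 CPM, although batch 2 was the more deeply sequenced. A difference in its level between libraries of different batches is therefore not interpreted.

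**Figure D1:**
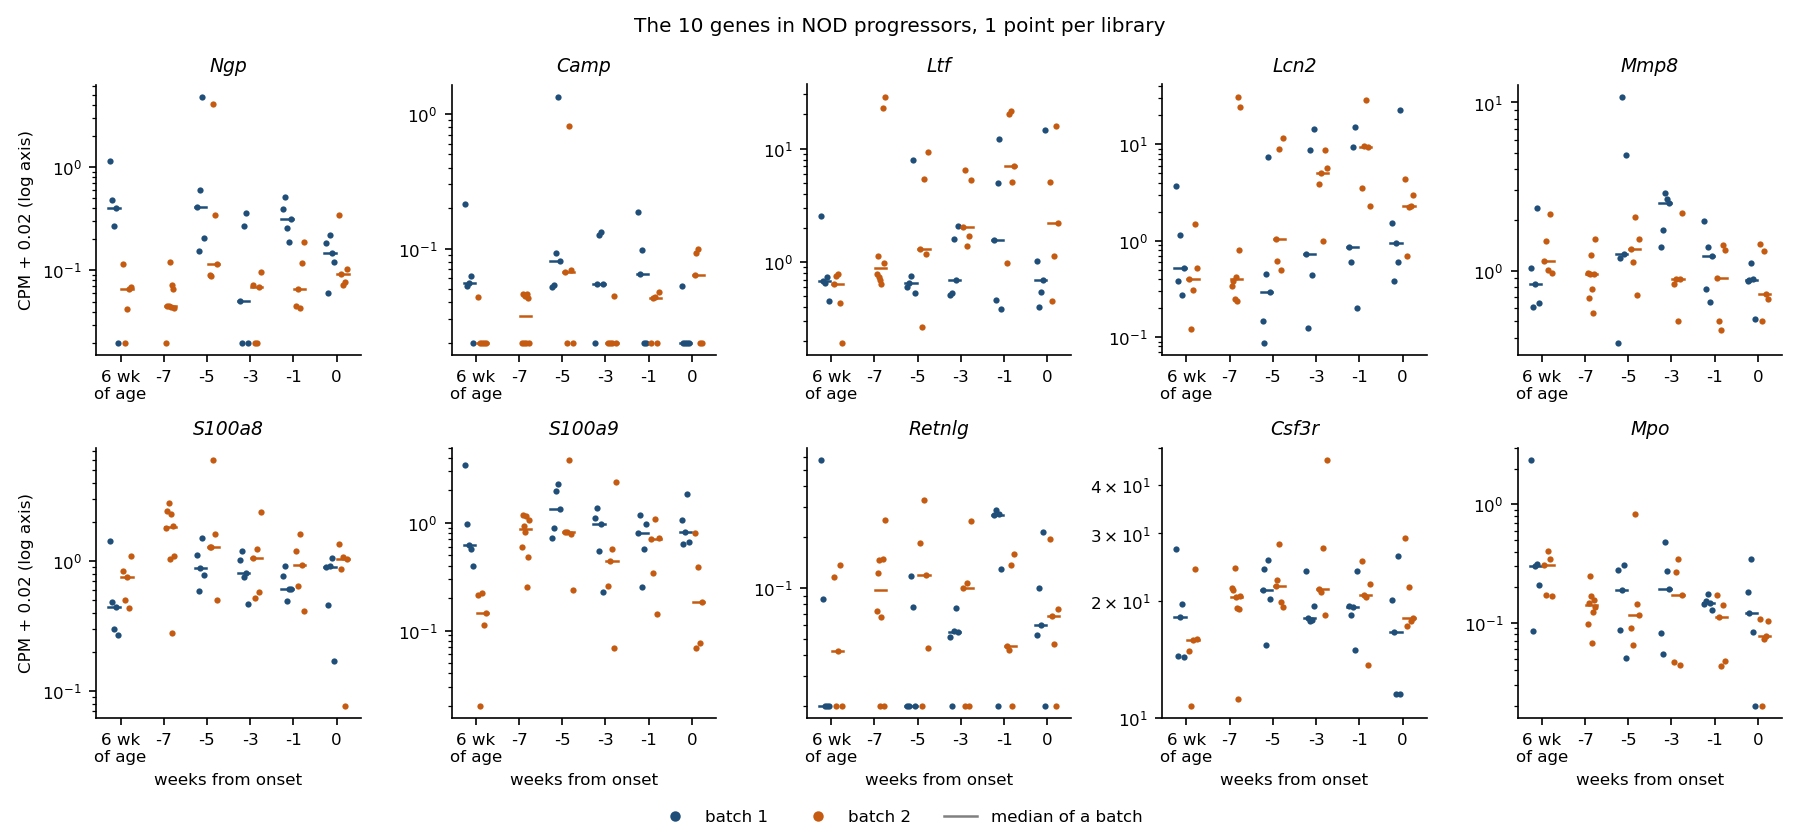
Level of each of the 10 genes in the 58 progressor libraries, as CPM plus 0.02 on a log axis, by time; points are single libraries coloured by batch and lines are batch medians. At −5 weeks Ngp and Camp have 1 high library in each batch, Ltf and Lcn2 spread over more than 10-fold at every time from −5 on, and Csf3r stays between 10.7 and 46.5 CPM.

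The step that chose the genes was examined first, as a description. Ngp at −5 weeks measured 0.386, 0.135, 0.582, 4.73 and 0.183 CPM in progressors 1 to 5 (batch 1) and 0.0708, 0.0682, 4.02, 0.323 and 0.0965 CPM in progressors 6 to 10 (batch 2). Mice 4 and 8, 1 in each batch, stood more than 6-fold above all other libraries of that time and held 82.6% of the summed Ngp level. At −3 weeks the same 2 mice measured 0.336 and 0 CPM. With both batches pooled, the mean was 0.131 ± 0.129 CPM (SD) over the 30 libraries of −3, −1 and onset and 1.06 ± 1.76 CPM (SD) over the 10 of −5. Each side held as many libraries of batch 1 as of batch 2, and these SDs include the batch difference. Ngp was higher at −5 than its own later mean in 8 of 10 mice, on average by 1.31 ± 1.79 (SD, n = 10 mice) on the log2(CPM + 0.1) scale, and above all 3 later biopsies in 5 of them. The fit across all genes gave Ngp a log2 fold change of 3.26 (SE 0.49), which became 0.91 (SE 0.46) without the −5 libraries of mice 4 and 8.

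Camp followed Ngp in those libraries. It measured 1.32 CPM in mouse 4 and 0.789 CPM in mouse 8 at −5 weeks, and no more than 0.0727 CPM in the other 8 mice, 2 of which had no count. The 2 libraries held 87.7% of the summed Camp level at that time. Camp, Retnlg and Mpo did not pass the filter on low counts of the progressor fit.

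The rest of the list did not move as a unit at −5 weeks. S100a8 was higher at −5 than at its later mean in 8 of 10 mice and S100a9 in 7, by 0.61 ± 0.94 and 0.90 ± 1.24 (SD, n = 10) on the log2(CPM + 0.1) scale. Their fitted log2 fold changes of 0.81 (SE 0.30) and 1.07 (SE 0.41) fell to 0.22 and 0.40 without the libraries of mice 4 and 8. Mmp8, the neutrophil collagenase, had its highest −5 values in different mice, 10.8 CPM in mouse 3 and 4.83 CPM in mouse 5 against 0.354 to 2.08 CPM in the other 8. Its fitted fold change was 1.06 (SE 0.28) with all libraries and 1.14 without mice 4 and 8, and 1.47 in batch 1 and 0.50 in batch 2 alone. Csf3r differed by 0.09 (SE 0.13) on the log2 scale, with values of 15.4 to 28.1 CPM at −5 and a later mean of 20.7 ± 6.43 CPM. The specific granule genes Ltf and Lcn2 lay on the other side, at −0.49 (SE 0.64) and −0.79 (SE 0.79). Over all genes, 82 of 21279 (0.385%) passed an adjusted p of 0.05 in this contrast, and nothing is read from the members' place among them.

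**Figure D2:**
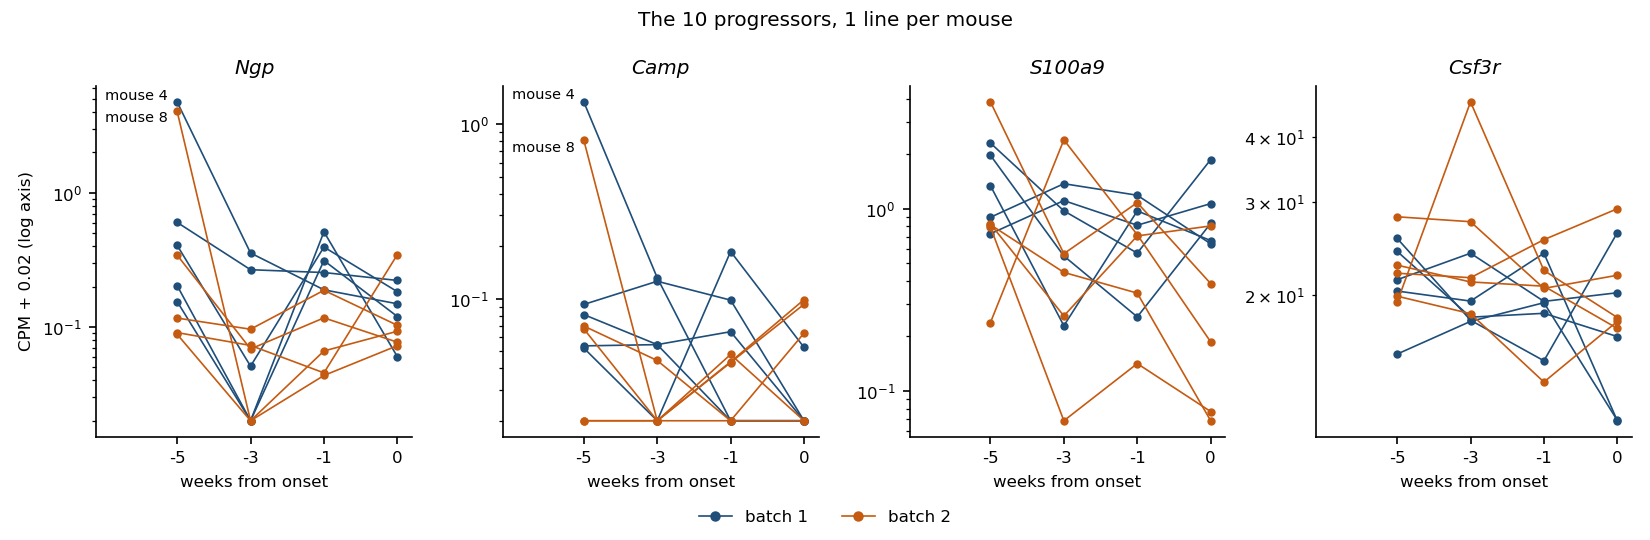
Ngp, Camp, S100a9 and Csf3r in the 10 progressors from −5 weeks to onset, as CPM plus 0.02 on a log axis; each line is a mouse, coloured by batch. The lines of mice 4 and 8 start at 4.73 and 4.02 CPM of Ngp and measure 0.336 and 0 CPM at −3 weeks, whereas no such start is seen for Csf3r.

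The 2 libraries that were high for Ngp differed in the rest of the neutrophil program. In the −5 library of mouse 8, S100a8 was 6.00 CPM, S100a9 3.82, Csf3r 28.1 and Mpo 0.813, each the highest of the 10 mice at that time, and T cell markers summed to 66.7 CPM, the highest of the 120 libraries. In that of mouse 4, S100a9 was 2.27 CPM and S100a8 1.49 CPM, Mpo was 0.287 CPM and Ly6g 0.0574 CPM. Of the 41 further neutrophil genes that were measured, the library of mouse 8 ranked among the 5 highest of 120 with at least 1 count for 6 and that of mouse 4 for 0. The share over all genes was not counted for either library. Both also held mammary epithelial transcripts, with 7 markers summing to 43.3 CPM in mouse 4 and 54.5 CPM in mouse 8 against a median of 0.573 and 3.99 CPM in their batches at that time. Another library of that time, from mouse 10, had more of these markers (111.6 CPM) with only 0.0965 CPM of Ngp. B cell markers summed to 1.41 and 9.94 CPM in mice 4 and 8 and erythroid markers to 111.8 and 767.3 CPM. The part of these cell types in the Ngp values was not tested.

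High single libraries of Ngp were not limited to progressors before onset. A nonprogressor had 4.11 CPM at 6 weeks of age (mouse 2), NOR mouse 1 had 2.95 CPM at 10 weeks and NOR mouse 2 had 2.72 CPM at 14 weeks. The nonprogressor libraries of 31 days after implantation had 2.44 and 1.47 CPM. Camp in those 5 libraries measured 0.464, 0.964, 0.722, 0.697 and 0.332 CPM, against a median of 0.0268 CPM over all libraries. In batch 2, by contrast, the −5 library of mouse 8 was alone: no other of the 46 exceeded 0.335 CPM of Ngp. Ngp and Camp correlated with r = 0.80 over the 74 libraries of batch 1 and 0.85 over the 46 of batch 2 (log2 scale), but leaving out the 2 libraries farthest from the median lowered the second value to 0.44. Libraries of the same mouse and the same scaling are shared by these points, and most Camp values are 3 counts or fewer.

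Comparisons other than the step that chose the genes were then tested in edgeR (quasi-likelihood F test, Benjamini-Hochberg adjustment over all genes tested, threshold 0.05). The steps from −3 weeks to onset are not independent of that choice, because they use the libraries of its later side. Ngp and Camp were tested and not called between strains and over age in NOR. Ngp was also tested and not called over age in nonprogressors of batch 1, at 6 weeks of age and in the steps from −3 weeks to onset. Neither passed the filter in the other comparisons, and Camp passed it in no other. At 6 weeks of age, the one age that progressors (n = 10) and nonprogressors (n = 11) share, 0 of 20090 genes passed (0%) and 8 of the 10 members passed the filter. S100a9 had the smallest unadjusted p of these 8 (log2 fold change −1.15, SE 0.49, unadjusted p = 0.0304, adjusted p = 0.909) and was the only member with an unadjusted p under 0.05, as were 1002 of all genes tested. Ngp differed by −1.12 (SE 0.62) and Mpo by 0.76 (SE 0.45), both short of the threshold by the same edgeR test (adjusted p = 0.909). DESeq2 also called 0 members, with 1 at an unadjusted p under 0.05, and within batch 1 alone the S100a9 difference was −0.99 (SE 0.79). In batch 2 alone S100a9 did not pass the filter. Its values there were 0 to 0.202 CPM in 5 progressors and 0.130 to 0.595 CPM in 7 nonprogressors, and the ranges overlap.

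Ltf and Lcn2 formed a second pattern, with the largest fitted fold changes of the comparisons tested and a weak correlation with Ngp (r = 0.36 and 0.24 for Ltf in the 2 batches). Ltf encodes lactoferrin, an iron-binding protein of specific granules and of milk, and Lcn2 encodes lipocalin-2, which binds bacterial siderophores. In nonprogressors of batch 2, Ltf at 6 weeks ranged from 0.325 to 0.649 CPM with a median of 0.436 (7 mice). At 14 weeks the 6 mice numbered 5 to 10 measured 0.280, 21.2, 15.4, 23.4, 13.8 and 3.00 CPM. Lcn2 went from 0.109 to 0.977 CPM at 6 weeks to 0.306, 14.6, 16.7, 31.4, 14.0 and 7.00 CPM in the same mice. In 5 of 6 mice both genes were above every 6-week library, and mouse 5 stayed at the 6-week level in both.

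The difference was the largest found for any member. Lcn2 rose by 5.10 (SE 0.75, adjusted p = 0.000391) and Ltf by 4.74 (SE 0.70, adjusted p = 0.000392) on the log2 scale by edgeR's quasi-likelihood test. Of all 19665 genes tested in this comparison, 34% passed and 16.6% passed as higher at 14 weeks. Of the 6 members that passed the filter, these 2 were called and Mmp8, Csf3r, S100a8 and S100a9 were not, at −0.11, 0.21, 0.26 and 1.12 (SE 0.41, 0.16, 0.31 and 0.60). The same step in the 4 nonprogressors of batch 1 gave a mean difference for Ltf of −0.52 ± 0.49 (SD, n = 4 mice, none higher) on the log2(CPM + 0.1) scale, against 3.69 ± 2.48 (SD, n = 6 mice) in batch 2, and the difference between the batches was not tested. Over the 5 ages of batch 1, edgeR called neither gene in nonprogressors (adjusted p = 0.880 for Ltf and 0.603 for Lcn2, where 13.6% of 19715 genes were called).

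Mammary epithelial transcripts moved with Ltf and Lcn2. The summed level of the 7 markers (Csn2, Csn3, Wap, Lalba, Krt8, Krt18 and Epcam) was 0.0251 to 0.309 CPM in the 6-week nonprogressor libraries of batch 2. At 14 weeks it was 0.841 CPM in mouse 5 and 87.3 to 161 CPM in the other 5 mice. The order of the markers was uneven: Krt18 and Krt8 reached 120.3 and 86.2 CPM in their highest library and the casein gene Csn2 26.3 CPM, while Wap, the whey acidic protein, never exceeded 0.129 CPM. Over all libraries the correlation with the mammary sum was 0.66 for Ltf and 0.72 for Lcn2 in batch 1 (n = 74) and 0.86 and 0.94 in batch 2 (n = 46), on the log2(CPM + 0.1) scale. For Ngp it was −0.06 and 0.29. The points share mice, batches and scaling, and the part of epithelial cells in the Ltf and Lcn2 differences was not tested.

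**Figure D3:**
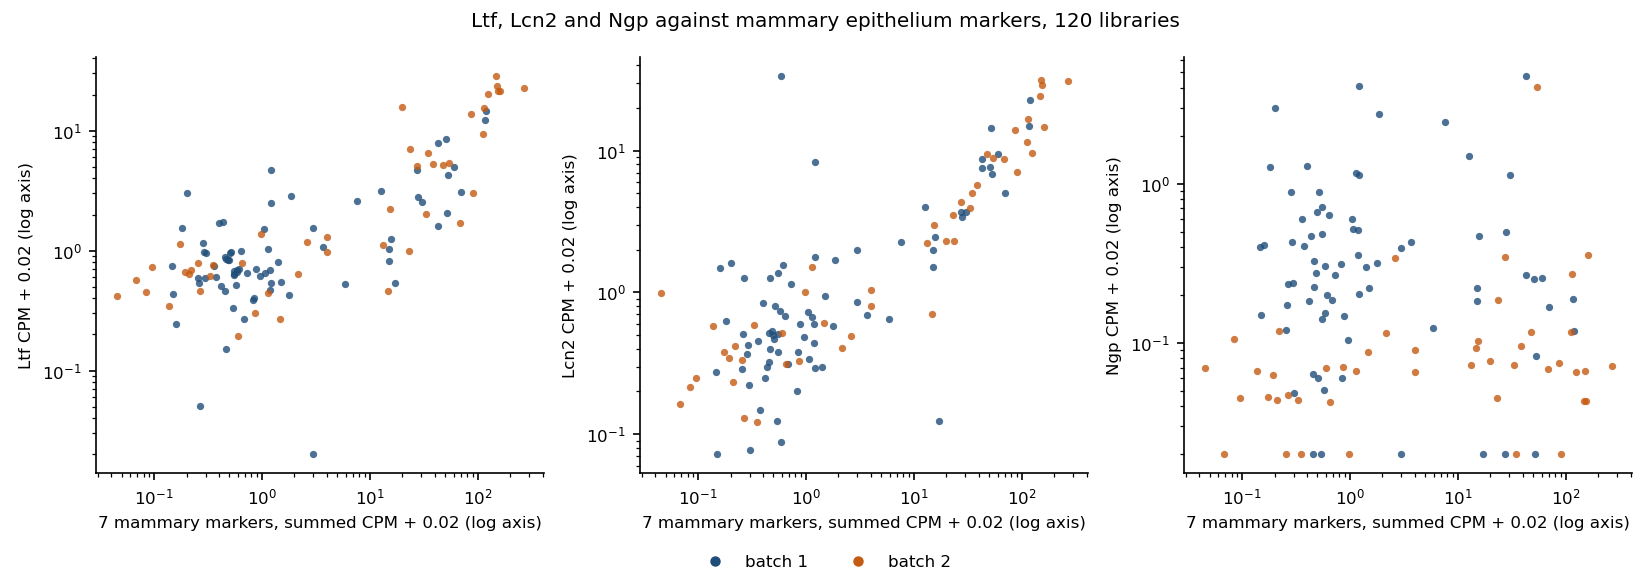
Ltf, Lcn2 and Ngp against the summed level of 7 mammary epithelium markers in the 120 libraries, both as CPM plus 0.02 on log axes and coloured by batch. Ltf and Lcn2 lie on a rising band above about 10 CPM of markers and Ngp does not; the Lcn2 point at 33.6 CPM with few markers is the 18-week library of NOR mouse 4.

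Progressors showed the same pair early. At −7 weeks Ltf was 22.9 CPM in mouse 7 and 28.6 CPM in mouse 10 and 0.619 to 1.11 CPM in the other 6 mice, against 0.175 to 0.763 CPM in the 5 progressor libraries of 6 weeks in batch 2. Lcn2 was 31.2 and 24.4 CPM in those 2 mice and 0.214 to 0.776 CPM in the rest. Their mammary sums were 267.3 and 148.1 CPM, and the other 6 were at or below 3.97 CPM. By edgeR's test against 6 weeks of age, Ltf was 3.74 higher (SE 1.19, adjusted p = 0.0267) and Lcn2 3.75 higher (SE 1.28, adjusted p = 0.0378), where 19.1% of 21377 genes were called, 9.75% as higher and 9.32% as lower. Without the −7 libraries of mice 7 and 10 the values became 0.55 and −0.55 and neither was called.

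After −7 weeks the high values recurred in changing mice. Ltf at −1 week measured 1.54, 0.447, 5.00, 12.2 and 0.366 CPM in progressors 1 to 5 and 0.968, 20.02, 21.4, 5.11 and 6.96 CPM in progressors 6 to 10. At onset the high mice were number 5 with 14.5 CPM and number 9 with 15.7 CPM, which had measured 0.366 and 5.11 CPM at −1. From −3 to −1 weeks Ltf differed by 1.76 (SE 0.78, adjusted p = 0.771 by edgeR) and from −1 to onset by −0.77 (SE 0.77, adjusted p = 0.773), and neither passed.

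Those last 2 steps before disease gave no call among the members. Of 21279 genes, edgeR called 0 (0%) between −3 and −1 weeks and 1 (0.0047%) between −1 week and onset, and of the 7 members that passed the filter it called 0 in either step. At an unadjusted p under 0.05 the members numbered 1 (Ltf) and 0 by edgeR and by DESeq2, which also called 0. Ngp differed by 1.13 (SE 0.78) from −3 to −1 and by −0.31 (SE 0.76) from −1 to onset, S100a8 by −0.31 (SE 0.39) and −0.06 (SE 0.39), and Csf3r by −0.23 (SE 0.16) and −0.09 (SE 0.16). These errors are small for Csf3r and large for Ngp.

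The calprotectin genes S100a8 and S100a9 formed the third pattern, and Csf3r and Retnlg are described with them. S100a8 and S100a9 make the 2 chains of a calcium- and zinc-binding complex that is the most abundant protein of the neutrophil cytosol. They correlated with r = 0.84 in batch 1 and 0.75 in batch 2, and S100a9 with Csf3r at 0.64 and 0.67 and with Retnlg at 0.71 and 0.59 (n = 74 and 46 libraries, which share mice and scaling). Leaving out the 2 farthest libraries gave 0.75 and 0.70 for the pair and 0.40 and 0.63 for S100a9 with Csf3r. The pattern was not set apart from Ngp: S100a9 correlated with Ngp at 0.52 and 0.45, or 0.50 and 0.13 without the 2 farthest. Retnlg correlated with Ngp at 0.52 and 0.43 and with Csf3r at 0.39 and 0.38. In 71 of 120 libraries Retnlg had 3 counts or fewer. The correlation of S100a9 with the summed T cell markers was 0.81 in batch 2 and 0.24 in batch 1.

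In the progressor libraries of batch 2, S100a9 was higher at −7 weeks than at 6 weeks of age. It measured 0.191, 0, 0.202, 0.0931 and 0.125 CPM in progressors 6 to 10 at 6 weeks of age. At −7 it measured 0.579, 1.16, 0.916, 0.795, 1.14, 0.232, 0.457 and 1.05 CPM in mice 1, 2, 3, 4, 6, 7, 9 and 10. The groups do not overlap, but the share of all genes without overlap was not counted. The log2 fold change was 2.66 (SE 0.82, adjusted p = 0.0227 by edgeR), where 19.1% of 21377 genes were called. All 4 mice with both biopsies in this batch were higher at −7. Without the −7 libraries of mice 7 and 10, S100a9 was still called (adjusted p = 0.0278), and it was the one member that was. Leaving out mouse 6 ended all 3 calls of this comparison. With all 58 progressor libraries and a batch term the S100a9 difference was 1.14 and was not called, and Ltf alone was. S100a8 differed by 1.24 (SE 0.57, adjusted p = 0.124), from 0.419 to 1.07 CPM at 6 weeks to 0.258 to 2.80 CPM at −7. T cell markers summed to 3.76 to 9.68 CPM at 6 weeks and 5.18 to 36.5 CPM at −7 in the same libraries, and their part in the result was not tested. Mice 1 to 4 entered this comparison at −7 only, because their 6-week libraries were in batch 1. The 5 progressor libraries of 6 weeks in batch 1 measured 0.374 to 3.41 CPM of S100a9. Age, time to onset, the number of earlier operations and, in part, the mice cannot be told apart in this comparison.

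In NOR mice S100a9 was higher at 22 than at 6 weeks in every mouse that had both libraries. The 6-week values of mice 1, 2, 4 and 5 were 0.822, 0.567, 0.104 and 0.489 CPM, and their 22-week values were 3.19, 3.64, 0.929 and 3.54 CPM. The difference was 2.32 ± 0.34 (SD, n = 4 mice, all higher) on the log2(CPM + 0.1) scale. The test of 22 against 6 weeks in the fit of all ages gave 2.46 (SE 1.12, unadjusted p = 0.0389, adjusted p = 0.435 by edgeR) and did not pass. Nonprogressors of batch 1 changed by 0.78 ± 2.11 (SD, n = 4 mice), with 2 higher and 2 lower, and the 2 strains were not tested against each other for this step.

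**Figure D4:**
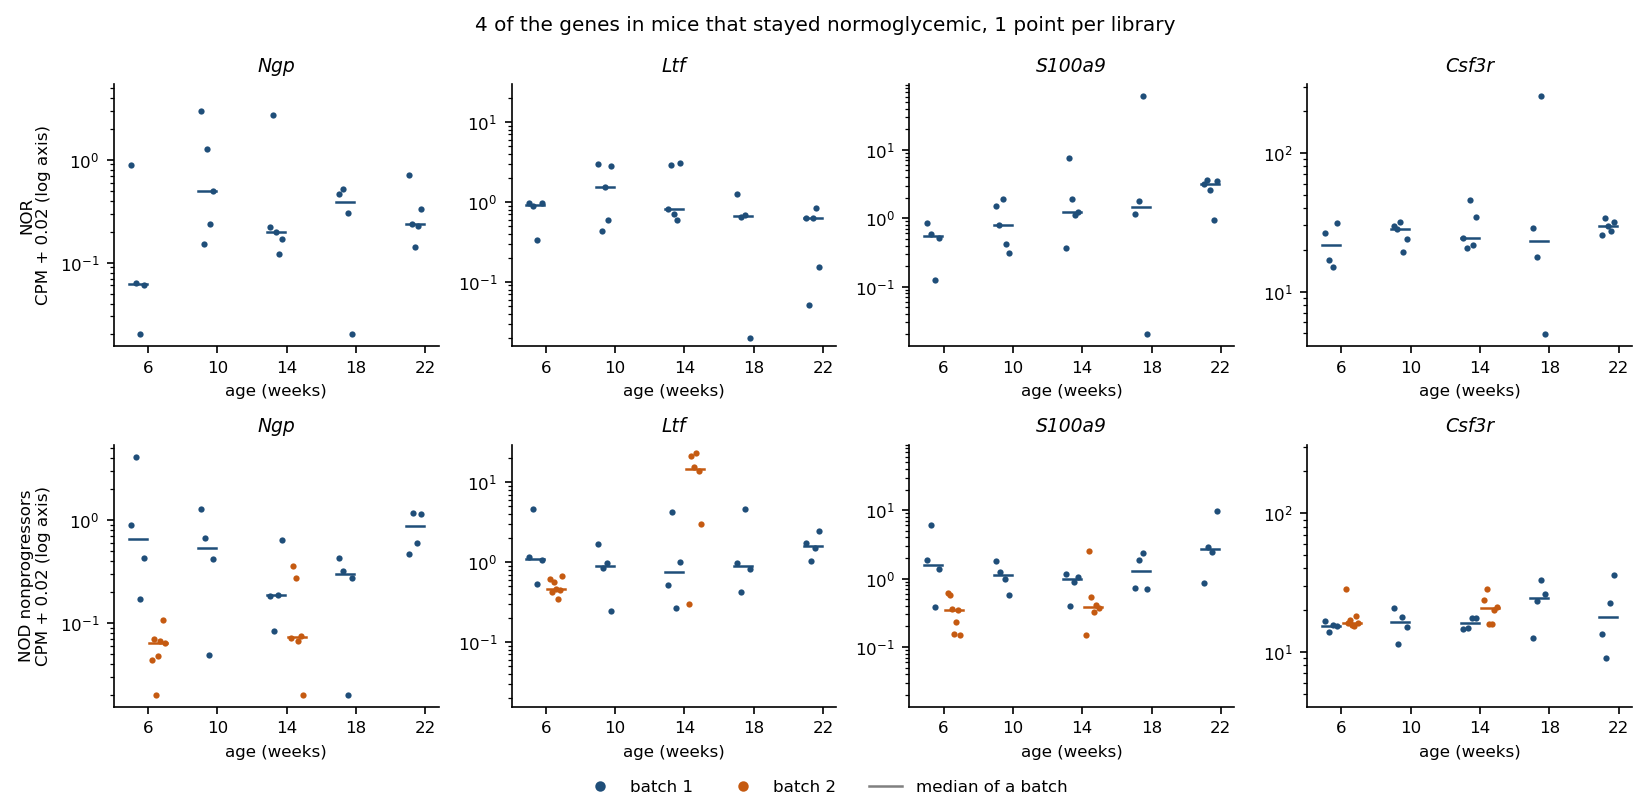
Ngp, Ltf, S100a9 and Csf3r by age in NOR mice (top) and NOD nonprogressors (bottom), as CPM plus 0.02 on a log axis with the same range in both rows; points are single libraries coloured by batch and lines are batch medians. Single libraries set most of the extremes, among them 60.6 CPM of S100a9 and 255.3 CPM of Csf3r in a NOR library of 18 weeks, and 5 of 6 nonprogressor libraries of batch 2 are high for Ltf at 14 weeks.

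The test over the 5 ages in NOR depended on single mice and libraries. Of the 9 members that passed the filter, edgeR called S100a9 (adjusted p = 0.0105), Mmp8 (0.0114) and Lcn2 (0.0273), where 8.24% of 19628 genes were called. In the 18-week biopsy of NOR mouse 4, S100a9 was 60.6 CPM, S100a8 20.01, Lcn2 33.6, Csf3r 255.3, Mmp8 5.88 and Retnlg 1.17 CPM. The other usable libraries of that age, from mice 1 and 3, had S100a9 at 1.14 and 1.77 CPM and Csf3r at 28.5 and 17.8 CPM. Without the library of mouse 4, edgeR called 0 members over age (adjusted p = 0.139 for S100a9, 0.211 for Mmp8 and 0.438 for Lcn2). Without the library of mouse 5, in which 1 gene dominated, it called 5, adding Csf3r (adjusted p = 0.0309) and S100a8 (adjusted p = 0.0484). When mouse was added as a block it called 1, Mmp8 (adjusted p = 0.0465). In the 6 alternatives that kept all mice, calls among all genes ran from 1188 to 3509, so the 8.24% applies to the main fit only.

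That library was high for genes that mature neutrophils transcribe. It ranked highest of the 120 libraries for 4 members (S100a8, S100a9, Lcn2 and Csf3r). The share of all genes for which this library ranked highest was not counted, so these ranks have no background. It also ranked highest for 22 of the 41 further neutrophil genes, of which Stfa1 had only 0.0354 CPM. These included Cxcr2 at 53.2 CPM, the decoy receptor Il1r2 at 28.3, Trem1 at 33.2, haptoglobin (Hp) at 514.7, histidine decarboxylase (Hdc) at 166.2 and Ly6g at 1.35 CPM. The neutrophil chemoattractants Cxcl1, Cxcl2, Cxcl3 and Cxcl5 measured 19.3, 116.8, 25.9 and 56.9 CPM and the growth factor Csf3 6.73 CPM, also the highest of all libraries. The specific and gelatinase granule genes were uneven there. Lcn2, Olfm4 (10.8 CPM), Pglyrp1 (2.48 CPM) and Hp ranked highest of the 120, whereas Ngp was 0.283 CPM (rank 39 of 120), Camp 0.425 (rank 9) and Ltf 0.673 CPM. Mmp8 and Mmp25 each had rank 2, and Cd177, Mmp9, Itgb2l and Chil3 had ranks 9, 28, 50 and 66. The azurophil genes Mpo and Elane measured 0.212 and 0.0354 CPM (ranks 34 and 58). Its mammary markers summed to 0.567 CPM, so that Lcn2 was high there without them, and its T cell markers to 38.0 CPM against 3.98 and 7.33 CPM in the libraries of mice 3 and 1.

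**Figure D5:**
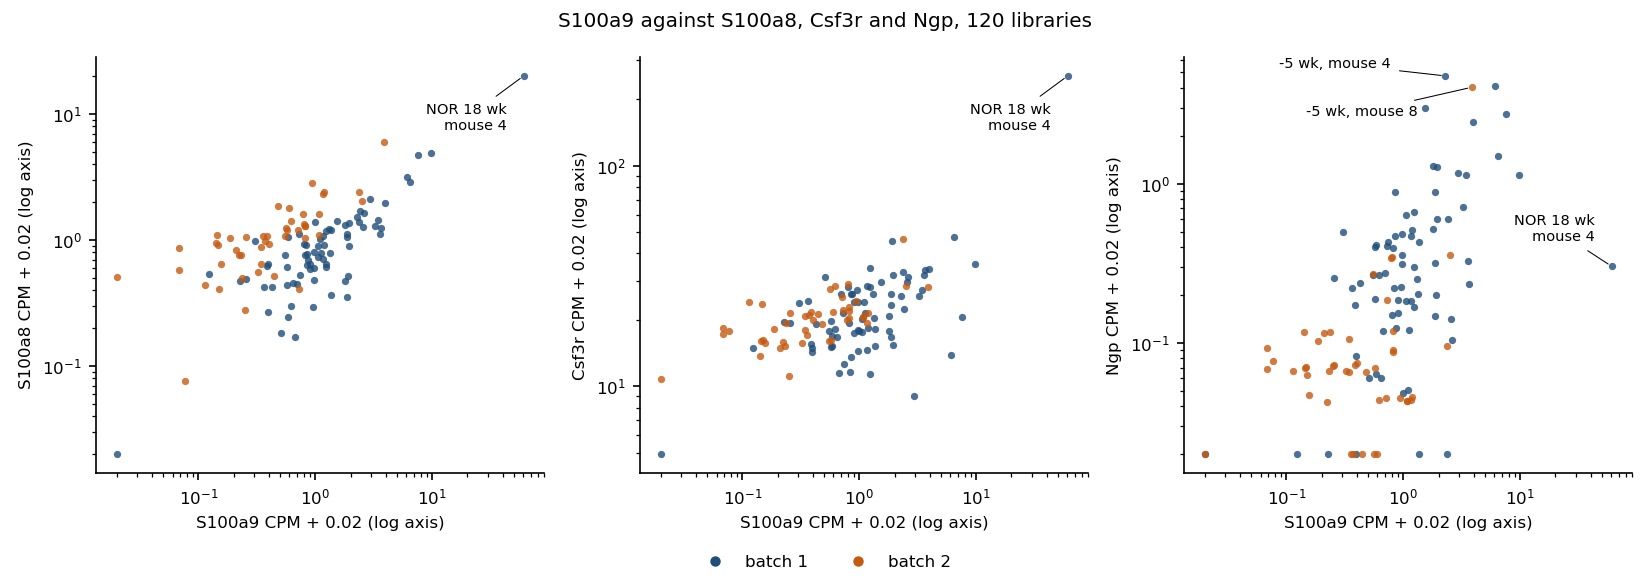
S100a9 against S100a8, Csf3r and Ngp in the 120 libraries, all as CPM plus 0.02 on log axes and coloured by batch, with the 18-week library of NOR mouse 4 and the −5 week libraries of progressors 4 and 8 marked. The marked NOR library is the highest for S100a9, S100a8 and Csf3r and lies in the middle of the range for Ngp, where the marked progressor libraries are among the highest.

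Csf3r was the one member called between strains. Summed over the ages 6 to 22 weeks of batch 1, it measured 26.9, 25.8, 31.3, 62.0 and 30.1 CPM in the 5 NOR mice and 16.1, 14.5, 18.3 and 19.8 CPM in the 4 nonprogressors, with no overlap. How many of all genes have no overlap between these mice was not counted. The log2 fold change of nonprogressors against NOR was −1.04 (SE 0.25, adjusted p = 0.0403 by edgeR), where 6.26% of 22975 genes were called, 3.63% as lower and 2.63% as higher. All 10 members were tested, and 1 was called. Without the 18-week library of mouse 4 the difference was −0.66 (adjusted p = 0.0164). Without NOR mouse 1, 3 or 5, or nonprogressor 1, 2, 3 or 4, it stayed between −1.11 and −0.97 and missed the threshold, with adjusted p values of 0.0513 to 0.112. At 6 weeks of age alone it was −0.57 (adjusted p = 0.368). S100a9 differed by −1.19 (SE 0.65, adjusted p = 0.337), Lcn2 by −1.03 (SE 0.71, adjusted p = 0.463) and Ngp by 0.21 (SE 0.61, adjusted p = 0.893). The median over the 10 members was −0.49 and over all genes 0.00 on the log2 scale.

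In progressors the batch medians of Csf3r ran from 15.8 CPM at 6 weeks of age to 22.0 CPM at −5 weeks, and in nonprogressors of batch 1 from 15.4 CPM at 6 weeks to 24.6 CPM at 18 weeks. Single libraries ranged more widely, from 9.01 to 35.8 CPM in those nonprogressors at 22 weeks, and the libraries of 31 days had 33.9 and 47.7 CPM. Csf3r correlated with the T cell markers at 0.62 in batch 1 and 0.67 in batch 2. With the summed macrophage markers it correlated at 0.47 in batch 1 and 0.37 in batch 2, where S100a9 had 0.14 and −0.04. The part of these cell types in the Csf3r levels, also between strains, was not tested.

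Mmp8 had a pattern of its own. In NOR mice it measured 1.79, 1.72, 5.88 and 3.91 CPM at 18 weeks, the last from the library in which 1 gene dominated, and 0.436 to 2.24 CPM at the other ages. In nonprogressors of batch 1 its median was 2.41 CPM at 14 weeks (1.63 to 3.97) and 0.7096 CPM at 10 weeks (0.310 to 0.847), without overlap. These are 2 of the 5 ages, and the share of all genes without overlap was not counted. Over the 5 ages the adjusted p was 0.0831 by edgeR, and DESeq2 called it (adjusted p = 0.0144) together with S100a9 (0.0449). edgeR called 0 of 7 members in that comparison, with 2 at an unadjusted p under 0.05. Among all genes, the 4 alternatives that kept all mice, DESeq2 among them, called 2016 to 4745.

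Mpo, the azurophil granule peroxidase of promyelocytes, was near the floor. Its median was 0.149 CPM and 46 of 120 libraries had 3 counts or fewer. The highest values were 3.76 and 1.47 CPM in the nonprogressor libraries of 31 days, 2.36 CPM in progressor 1 at 6 weeks of age and 1.62 and 1.197 CPM in NOR mice 5 and 2 at 10 weeks. In the progressor fit of batch 2 it was lower at −7 weeks than at 6 weeks of age by 1.05 on the log2 scale (SE 0.59, adjusted p = 0.217 by edgeR, not called), and lower in 4 of 4 mice with both biopsies. Retnlg, a resistin-like protein of mature neutrophils, had a median of 0.0753 CPM, with highest values of 1.38 CPM (NOR mouse 2, 14 weeks), 1.30 CPM (nonprogressor 2, 6 weeks) and 1.17 CPM (NOR mouse 4, 18 weeks).

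The wider neutrophil list of 41 measured genes showed which other genes of the lineage moved in the same comparisons. Between nonprogressors and NOR, 36 were tested and 3 were called by edgeR (8.33%, beside 6.26% of all genes), all lower in nonprogressors: Padi4, the enzyme that citrullinates histones, by 2.68 (adjusted p = 0.00164), Ctsg by 1.60 (0.0367) and Pglyrp1 by 0.72 (0.0166). Their median was −0.55. From 6 to 14 weeks in nonprogressors of batch 2, 27 were tested and 7 called (25.9%, beside 34% of all genes). Hp, the protease inhibitor Slpi, which epithelium also makes, and the peptidoglycan receptor Pglyrp1 rose by 2.18, 0.95 and 0.83 (adjusted p = 0.00111, 0.00596 and 0.00723). The formyl peptide receptors Fpr1 and Fpr2, Il1r2 and Ifitm6 fell by 2.49, 1.24, 2.21 and 1.58 (adjusted p = 0.000308, 0.000926, 0.000801 and 0.000202). Their median was 0.16, beside 0.00 over all genes.

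Between 6 weeks of age and −7 weeks in progressors, 32 of the wider list were tested and 7 called (21.9%, beside 19.1% of all genes). Itgb2l, Olfm4, Hp, Hdc and Slpi rose by 4.46, 3.01, 1.98, 1.45 and 0.82 (adjusted p = 0.0355, 0.0235, 0.0189, 0.0448 and 0.0403 by edgeR), and Fpr1 and Ifitm6 fell by 2.70 and 1.46 (adjusted p = 0.00415 and 0.00348). Fpr1 and Ifitm6 thus fell in both comparisons of batch 2 while Hp and Slpi rose in both. In the same libraries the summed monocyte markers went from a median of 847 to 278 CPM in nonprogressors and from 874 to 479 CPM in progressors, and the proliferation markers from 178 to 96.7 CPM and from 173 to 87.1 CPM. Their part in these differences was not tested. At 6 weeks between progressors and nonprogressors, 29 were tested and 0 called, and in the steps from −3 to −1 and from −1 to onset 31 were tested and 0 called. Over age, edgeR called 17 of 30 in NOR, 12 without the 18-week library of mouse 4 and 10 of 32 when mouse was added as a block, and 5 of 28 in nonprogressors of batch 1. The main fits thus called 17.9% beside 13.6% of all genes in nonprogressors and 56.7% beside 8.24% in NOR. In the 6 NOR alternatives that kept all mice, calls among all genes ran from 1188 to 3509. The share that matches the 12 of 30 and the 10 of 32 is therefore not the 8.24%. In those nonprogressors 9 of 28 passed between 22 and 6 weeks (32.1%, beside 21.5% of all genes), 7 higher and 2 lower. Among these 9, the chitinase-like gene Chil3 rose by 3.95 (adjusted p = 0.00102) and the gelatinase Mmp9 fell by 4.45 (adjusted p = 0.00333), genes that macrophages also express. Trem1, Cxcl5, Cxcl3 and Cxcl2 rose by 2.17, 2.16, 2.27 and 2.10 (adjusted p = 0.00264, 0.0126, 0.0498 and 0.0380). In NOR, Chil3 rose by 5.36 and Padi4 by 4.20 and Mmp9 fell by 4.11 over the same ages, 3 of 30 beside 1.08% of all genes (adjusted p = 0.00777, 0.000696 and 0.0151).

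The genes most like Ngp over the 120 libraries were sought among 19268 genes with a mean count of at least 10, with log2 CPM centred within batch. Camp, Retnlg and Mpo had lower mean counts and were not in this search. Of the members in it, S100a9 (r = 0.49) and S100a8 (r = 0.43) were closest. The 10 closest other genes were Gm7496, Gm37915, Fem1c, Psd2, Ccnl1, Arid4a, 4833421G17Rik, Zfp738, Sftpc and Zfp811, with r of 0.34 to 0.37, and none is on the neutrophil lists. In lists drawn up after the values were seen, the genes closest to Ltf were at r of 0.81 to 0.82 and included Btn1a1, the butyrophilin of milk fat globules, and the epithelial genes Wfdc2 and Foxa1. Those closest to S100a9 included Nlrp12 (0.77), Il1b (0.69), Hdc (0.65) and Cxcl5 (0.64), and those closest to Csf3r included Mefv (0.75) and Nlrp12 (0.71).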

How the data were processed

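Bulk RNA from 120 INs was measured. The authors deposited 2 tables of expected counts per gene, 1 per batch, made with cutadapt, STAR and RSEM on GRCm38, with FastQC and MultiQC for quality, per the submitters' processing notes. Versions are not given in the sources used here. The deposited counts were whole numbers. The 5 and 4 reporter rows that name no mouse gene were left out, 55487 genes were shared, and 55141 matched GENCODE M21, which gave coordinates and exon lengths. Promoter windows came from RefSeq (GRCm38.p6).

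The members and lists were chosen with earlier results of these data known. Groups and mouse numbers came from the labels. CPM used TMM factors. Tests used edgeR 4.0.16 (quasi-likelihood, filterByExpr with a minimum count of 10, Benjamini-Hochberg over all genes tested, threshold 0.05) in R 4.3.3 with limma 3.58.1. DESeq2 1.42.0 was an alternative, beside RLE scaling, no filter, each mouse left out, single batches, no batch term and the mouse as a block. The strain comparison summed the libraries of each mouse. The 6-week comparison and the steps from −5 weeks to onset had batch as a term, and −7 weeks was compared within all 33 progressor libraries of batch 2. Log2 differences by mouse used CPM + 0.1. The text names all 10 members, the called genes of a wider neutrophil list (41 of 42 measured, BC100530 missing), and the 10 genes most like Ngp. Lists of genes like other members were added later. Figures and summaries used Python 3.11.15, pandas 2.3.3, scipy 1.17.1 and matplotlib 3.10.9. Scripts were tested on simulated data.

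Libraries of a group with 1 mouse number come from the same animal, except that the 6 day-labelled libraries were linked to no mouse. Their deviations from group means were nearly uncorrelated (mean r 0.00896 in NOR, 0.00841 in nonprogressors and −0.00291 in progressors, 2000 genes). No pair of 239 within groups was a duplicate (lowest chi-square per degree of freedom 11.0). In tests over time, repeated biopsies of a mouse entered as separate samples, so p-values measure the spread between biopsies. The depth ranged from 4722396 to 56185434 counts, and 3 counts served as the detection floor, which covers counting error only. Expected counts share reads among similar genes by estimate, which can move low values.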

Additional observations from a re-analysis of the deposited data

Results flagged for a closer look

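A library far from the others of its group and batch was found in 30 of 230 sets of 4 to 8 libraries (13.04%). The rule has a nominal rate of 5%, but the sets share libraries and many values are near the detection floor. No excess over chance is read from this share. The rule sets the gap to the nearest library against the range of the set (Dixon's ratio, log2(CPM + 0.1) scale). A high library in a widely spread set can thus go unflagged. This held for progressor 4 at −5 weeks (4.73 CPM of Ngp) and NOR mouse 4 at 18 weeks (60.6 CPM of S100a9). For Ngp, the libraries flagged as high were NOR mouse 1 at 6 weeks (0.863 CPM), NOR mouse 2 at 14 weeks (2.72 CPM), progressor 8 at −5 weeks (4.02 CPM) and progressor 6 at onset (0.326 CPM). For Camp they were NOR mouse 2 at 14 weeks (0.722 CPM), progressors 4 and 8 at −5 weeks (1.32 and 0.789 CPM) and nonprogressor 6 at 14 weeks (0.0894 CPM). In a further 4 sets the high Camp library had at most a few counts: nonprogressor 11 and progressor 6 at 6 weeks (0.0216 and 0.0239 CPM), progressor 9 at −3 weeks (0.0243 CPM) and progressor 1 at onset (0.0326 CPM).

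By the same rule, Ltf was flagged as high in progressor 1 at 6 weeks of age (2.52 CPM), progressor 4 at −5 weeks (7.89 CPM) and progressor 5 at onset (14.5 CPM), and as low in NOR mouse 4 at 6 weeks (0.313 CPM). The genes below are listed by these flags only. Lcn2 was high in nonprogressor 3 at 18 weeks (3.70 CPM) and low in nonprogressor 5 at 14 weeks (0.306 CPM). S100a8 was high in NOR mouse 2 at 14 weeks (4.68 CPM) and low in NOR mouse 4 at 22 weeks (0.275 CPM), progressor 7 at −7 weeks (0.258 CPM) and progressor 9 at onset (0.0570 CPM). S100a9 was low in NOR mouse 4 at 22 weeks (0.929 CPM). Retnlg was high in NOR mouse 2 at 14 weeks (1.38 CPM) and progressor 1 at 6 weeks (0.555 CPM) and low in nonprogressor 2 at 10 weeks (0.0281 CPM). Csf3r was high in nonprogressor 5 at 6 weeks (28.4 CPM) and low in progressor 7 at −7 weeks (11.2 CPM). Mpo was high in progressor 8 at −5 weeks (0.813 CPM) and low in nonprogressor 1 at 10 weeks (0.141 CPM).

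The 6 nonprogressor libraries labelled by days after implantation entered no comparison. Ltf there reached 3.13 CPM at 31 days (mouse 2) and 8.52 CPM at 38 days (mouse 1), above the highest NOR library (3.08 CPM), and Mpo reached 3.76 CPM at 31 days (mouse 2), above the highest NOR library (1.62 CPM).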

How the results depend on the processing

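The calls of Ltf and Lcn2 from 6 to 14 weeks in nonprogressors held under every alternative run (log2 fold changes 4.22 to 5.06 and 4.54 to 5.47). Among all genes, the same alternatives called 4661 to 8290 in that comparison, so a call there is common. The strain comparison called 1 member and 0 with samples of 6 weeks alone. Leaving out 1 mouse at a time gave 0 to 1. Over age in NOR it called 3 members, 1 with the mouse as a replicate block (Mmp8), 5 without the 18-week library of mouse 5 and 0 without that of mouse 4, a library chosen after seeing the data. Leaving out 1 mouse at a time gave 1 to 3, with S100a9 alone without mouse 1, Mmp8 alone without mouse 4 and Lcn2 alone without mouse 5. In nonprogressors over age DESeq2 called 2 members in place of 0. From 6 weeks of age to −7 weeks 3 members were called, 1 with all 58 libraries and a batch term and 1 without the libraries of mice 7 and 10, where Lcn2 changed sign to −0.55. Leaving out 1 mouse gave 0 (mouse 6) to 3, and 1 (S100a9) without mouse 7, 8 or 10. The Ngp value of −5 weeks was 0.91 without the libraries of mice 4 and 8. Those omissions were also chosen after seeing the data. Except for the NOR ages, the replicate block changed no count of members called. The causes were not tested. Over all genes, the counts called ranged from 206 to 2553 (strain), 481 to 3509 (NOR ages), 409 to 4745 (nonprogressor ages), 2144 to 4899 (−7 weeks) and 0 to 529 (onset). Depth limits Camp, Retnlg, Ngp and Mpo, which had 3 counts or fewer in 97, 71, 51 and 46 of 120 libraries.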

Other observations

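In the nonprogressor libraries labelled 31 days after implantation, Ngp measured 2.44 and 1.47 CPM, Camp 0.697 and 0.332 CPM, S100a9 3.91 and 6.47 CPM, Retnlg 0.581 and 0.691 CPM and Mpo 1.47 and 3.76 CPM. At 38 days the values were 0.232 and 0.0849 CPM of Ngp, 1.29 and 2.59 CPM of S100a9 and 0.107 and 0.127 CPM of Mpo. At 108 days Ngp was 0.105 and 0.279 CPM, S100a9 0.838 and 1.21 CPM and Mpo 0.157 and 0.0930 CPM. For these 3 genes both libraries of 31 days lay above all 4 later ones. All 6 are single biopsies of batch 1, 2 per time, and no test was run on them.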
